A study of Mus musculus with 16 samples.

Results

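The 3 chains of fibrinogen (Fga, Fgb and Fgg) and 7 genes commonly read as markers of kidney tubule injury (Havcr1, Lcn2, Spp1, Krt20, Cdkn1a, Clu and Vcam1) were followed in the kidneys of 16 mice. Members were taken by symbol through their Ensembl identifiers, and all 10 were among the 13430 genes of the table. All 10 were also among the 12943 genes tested, those with 4 or more libraries at 0.5 RPKM or above. RPKM scales read numbers to transcript length and library size, so levels can be compared between genes. Fgb passed the filter mainly through the wild-type libraries, since it reached 0.5 RPKM in all 8 of them and in 1 of the 8 knockout libraries. Havcr1 reached 0.5 RPKM in 7 of the 16 libraries and Krt20 in 8.

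All mice were females of the C57BL/6 strain, 2 to 3 months old, and were fasted for 12 h before tissue was taken. The groups differed in genotype, wild type or IRR(-/-), and in drink, plain water or water with 250 mM NaHCO3 at pH 8.5 for 7 days, with 4 mice in each of the 4 groups. IRR is the insulin receptor-related receptor, the product of Insrr, which is activated by extracellular fluid of alkaline pH. The allele, the deleted stretch, the breeding of the controls and the date of each library are not given in the labels. RNA came from a slice of 3 mm through the middle of the organ, and in such bulk tissue fewer cells of a type and less RNA per cell cannot be told apart.

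Insrr lay between 4.20 and 6.73 RPKM in the wild-type libraries and between 3.31 and 4.11 RPKM in the knockout libraries, so it was lower but not absent under the knockout label. Mitochondrially encoded genes held 69.6% to 74.2% of all RPKM in wild-type libraries and 82.6% to 84.9% in knockout libraries, and the part of this difference in the values of single genes was not tested. The median RPKM of a library was between 8.44 and 8.92. Slc34a1, the phosphate carrier that defines proximal tubule, was at 779 to 1264 RPKM over all libraries. Wild-type bicarbonate replicate 3 stood apart in Kap, a proximal tubule gene, which was at 742 RPKM there and at 7148 to 9256 RPKM in the other 3 libraries of the group. Many differences of members that rest on this library are given below with and without it, and the medians over members only with it.

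Fibrinogen is a soluble plasma protein made of pairs of alpha, beta and gamma chains, which thrombin turns into the fibrin of a clot. The liver makes most of it, with more during the acute phase response to IL-6, and kidney tubule cells can also express the chains after injury. Of the injury markers, Havcr1 encodes KIM-1, a receptor for dead cells that appears on injured proximal tubule cells, and Lcn2 encodes NGAL, an iron siderophore binder released by stressed distal tubules. Spp1 is osteopontin, Krt20 an intermediate filament keratin, Cdkn1a the cell cycle inhibitor p21, Clu the secreted chaperone clusterin and Vcam1 an adhesion molecule for leukocyte integrins, which also marks tubule cells that fail to repair.

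In the knockout the gamma and beta chains of fibrinogen were lower on both drinks, while the alpha chain did not pass the test on either. Clu was also lower on both drinks, and Lcn2 was higher on water. The other 5 injury markers passed on neither drink. On water 1 member was higher and 3 were lower, where 10.1% of all genes tested were called higher and 11.8% lower, 21.9% in both directions together. On bicarbonate none was higher and 3 were lower, against 9.03% and 9.36% of all genes, or 18.4% in both directions. With so many genes called between the genotypes, a count of this size over 10 members is not itself a result about them, and each member is therefore given by its own values.

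Fgg, the gamma chain gene, was the chain with the most separated genotypes. Its RPKM in replicates 1 to 4 was 5.11, 6.43, 10.7 and 15.6 in wild type on water and 14.9, 10.9, 41.1 and 8.81 in wild type on bicarbonate. The knockout mice were at 2.04, 1.69, 1.49 and 2.69 on water and 1.07, 1.89, 0.971 and 1.54 on bicarbonate. Every wild-type library lay above every knockout library. The group means were 9.45 ± 4.72 and 18.9 ± 15.0 RPKM in wild type against 1.98 ± 0.527 and 1.37 ± 0.429 RPKM in the knockout (SD, n = 4 each, water then bicarbonate). Differences between groups are given as log2 differences of RPKM + 0.1, which understate the change of low genes. For Fgg the log2 difference of knockout minus wild type was -2.10 ± 0.43 on water (SE, 95% interval -3.02 to -1.18, limma adjusted p = 0.00304). On bicarbonate it was -3.46 ± 0.43 (limma adjusted p = 8.8e-05), and -3.00 without wild-type bicarbonate replicate 3. The call held in each of 18 alternative analyses on each drink.

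Fgb, the beta chain gene, was the lowest of the chains and also fell in the knockout. It was at 0.817, 0.957, 0.950 and 0.842 RPKM in wild type on water and at 1.51, 0.705, 4.55 and 0.657 RPKM in wild type on bicarbonate. The knockout mice were at 0.252, 0.190, 0.239 and 0.527 RPKM on water and 0.0912, 0.0470, 0.0642 and 0.0903 RPKM on bicarbonate. The genotypes did not overlap, and the knockout libraries on bicarbonate all lay below those on water. The log2 difference was -1.37 ± 0.45 on water (SE, limma adjusted p = 0.0434), a call that held in 6 of 17 alternatives and was lost without any one of 7 of the 8 libraries compared, all but knockout water replicate 4, with adjusted p between 0.0696 and 0.103. On bicarbonate it was -3.09 ± 0.45 (limma adjusted p = 0.000312), which held in all 17 alternatives and was -2.53 without wild-type bicarbonate replicate 3. At these levels the pseudocount sets the size: with a pseudocount of 1 the difference on water was -0.55 (limma adjusted p = 0.170).

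Fga, the alpha chain gene, was the highest chain and overlapped between genotypes. Wild type stood at 11.2, 10.1, 23.2 and 24.3 RPKM on water and 29.3, 21.1, 48.1 and 13.1 RPKM on bicarbonate. The knockout stood at 16.3, 10.6, 10.5 and 15.2 RPKM on water and 15.7, 11.8, 12.1 and 12.0 RPKM on bicarbonate. The wild-type libraries were the more scattered, with SDs of 7.59 and 15.0 RPKM against 3.05 and 1.84 RPKM in the knockout. The log2 difference was -0.30 ± 0.36 on water (SE, limma adjusted p = 0.602) and -0.96 ± 0.36 on bicarbonate (limma adjusted p = 0.0783). Without wild-type bicarbonate replicate 4, the lowest of its group, the difference on bicarbonate was -1.27 and passed (limma adjusted p = 0.0204). Without replicate 3, the highest of that group, it was -0.65 and did not pass (limma adjusted p = 0.2005).

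**Figure D1:**
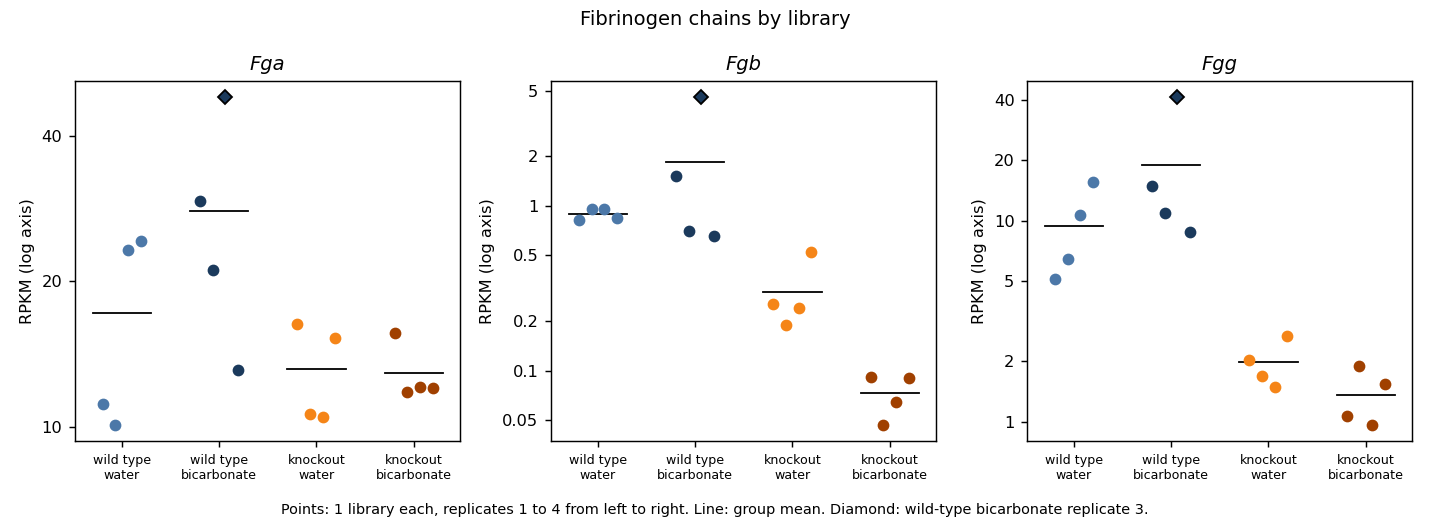
RPKM of Fga, Fgb and Fgg in each of the 16 libraries by genotype and drink, on log axes, with 1 point per mouse, a line at the group mean and a diamond for wild-type bicarbonate replicate 3. The Fgg points of the knockout, at 0.971 to 2.69 RPKM, all lie below those of wild type, at 5.11 to 41.1 RPKM, while the Fga points of the genotypes overlap.

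The order of the chains was the same in all 16 libraries, with Fga above Fgg and Fgg above Fgb, so the genotypes differed in the proportions and not in the order. The ratio of Fgg to Fga in RPKM was 0.458, 0.636, 0.461 and 0.641 in wild type on water and 0.506, 0.516, 0.855 and 0.671 in wild type on bicarbonate. The knockout mice were at 0.125, 0.159, 0.142 and 0.176 on water and 0.0682, 0.160, 0.0802 and 0.128 on bicarbonate. No knockout library reached the lowest wild-type ratio. These ratios were compared after the chain values had been seen, with an exact two-sided permutation of genotype within each drink over 4900 regroupings. The log2 ratio of Fgg to Fga differed, knockout minus wild type, by an average of -2.23 over the drinks (exact permutation p = 0.000408, the smallest these regroupings can give, adjusted p = 0.000612 over 3 ratios). That of Fgb to Fga differed by -2.33 (exact permutation p = 0.000408, adjusted p = 0.000612), but by -0.28 with a pseudocount of 1 (exact permutation p = 0.148). That of Fgb to Fgg differed by -0.10 (exact permutation p = 0.766), a value that turned to 0.56 with a pseudocount of 0.1 (exact permutation p = 0.0351), so the order of the 2 falls relative to each other was not settled. Thus Fgg differed between the genotypes by more than Fga, in a test of the ratio itself.

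**Figure D2:**
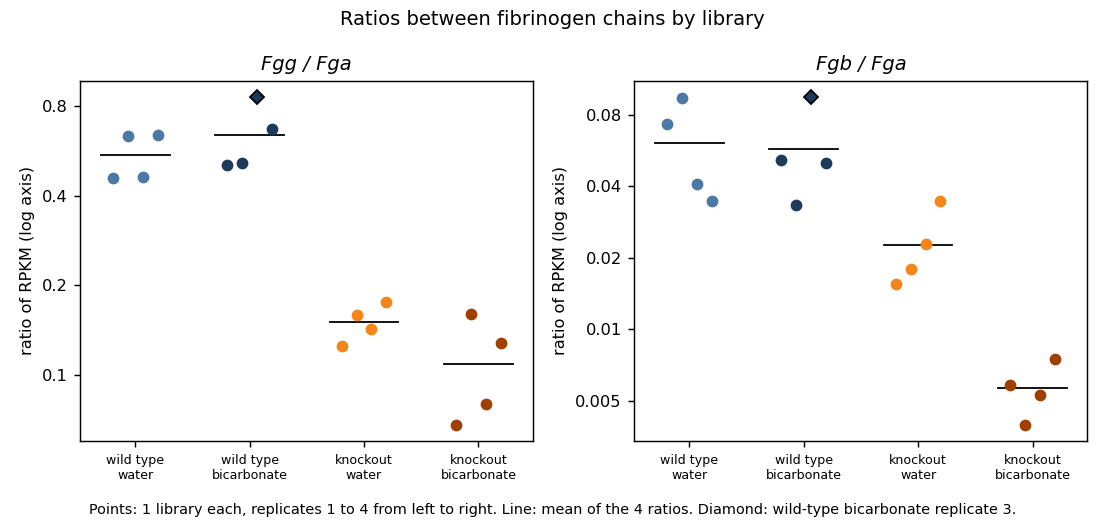
Ratios of RPKM between the fibrinogen chains in each of the 16 libraries on log axes, with 1 point per mouse, a line at the mean of the 4 ratios of a group and a diamond for wild-type bicarbonate replicate 3. The ratio of Fgg to Fga is 0.0682 to 0.176 in the knockout libraries and 0.458 to 0.855 in the wild-type libraries.

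The chains are neighbours on chromosome 3. In GENCODE M21 on GRCm38, Fgg (ENSMUSG00000033860) is at chr3:83007724-83015049 on the plus strand, Fga (ENSMUSG00000028001) at chr3:83026076-83033627 on the plus strand and Fgb (ENSMUSG00000033831) at chr3:83040141-83049863 on the minus strand, so that they span 42.1 kb. The cluster lies 4.75 Mb from Insrr, on the same chromosome, at chr3:87796951-87816101. No source used here gives the build behind the deposited values, and these positions serve only as annotation. Fgg overlaps a minus-strand gene model, Gm30097, and without the strand setting of the counting their reads cannot be told apart. Of 11 genes in the table that start within 1000000 bases of the start of Fgb, the 3 chains among them, 3 were called between genotypes on water and 2 on bicarbonate. These counts were near the shares of all genes, 21.9% and 18.4%. Beside Fgg and Fgb the third was Gucy1b1, a subunit of the nitric oxide receptor, with a log2 difference of -0.68 (limma adjusted p = 0.0110) on water. Averaged over the drinks 4 were called, against 33.7% of all genes, with Lrat (-0.41, limma adjusted p = 0.0217) beside these 3. The calls of Lrat and Gucy1b1 over both drinks were lost with the trend on length and GC content removed. Plrg1, a splicing factor gene that starts 5659 bases from the start of Fgb, had log2 differences of 0.05 on water and -0.14 on bicarbonate (limma adjusted p = 0.780 and 0.365).

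The sequences before the RefSeq starts of the 3 chain genes are shown because Fgg and Fgb fell while their neighbour Fga did not pass. RefSeq on GRCm38.p6 gave a start for 8 of the 10 members, all but Clu and Vcam1. The 250 bases before the start are written 5′ to 3′ on the strand of the gene, for Fga from chr3:83025903-83026152 (plus), for Fgb from chr3:83049864-83050113 (minus) and for Fgg from chr3:83007474-83007723 (plus). The windows of Fgb and Fgg end where their GENCODE genes begin. That of Fga runs past its GENCODE start, chr3:83026076, so its positions are counted from an unlike start. Capitals mark any match, on either strand, to 3 motifs known from liver promoters: CTGGGA, the core of an IL-6 response element, TTCNNNGAA, a STAT site, and TTGCNNAA, a C/EBP site.
Fga: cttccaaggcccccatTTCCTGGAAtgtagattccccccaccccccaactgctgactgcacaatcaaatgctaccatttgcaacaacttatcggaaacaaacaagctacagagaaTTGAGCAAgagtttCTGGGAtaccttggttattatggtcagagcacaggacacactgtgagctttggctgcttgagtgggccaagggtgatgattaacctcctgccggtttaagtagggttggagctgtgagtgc
Fgb: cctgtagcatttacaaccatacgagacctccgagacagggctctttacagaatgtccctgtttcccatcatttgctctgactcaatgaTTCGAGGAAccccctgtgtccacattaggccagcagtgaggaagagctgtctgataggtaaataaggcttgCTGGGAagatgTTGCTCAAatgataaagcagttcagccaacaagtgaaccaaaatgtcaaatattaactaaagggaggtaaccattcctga
Fgg: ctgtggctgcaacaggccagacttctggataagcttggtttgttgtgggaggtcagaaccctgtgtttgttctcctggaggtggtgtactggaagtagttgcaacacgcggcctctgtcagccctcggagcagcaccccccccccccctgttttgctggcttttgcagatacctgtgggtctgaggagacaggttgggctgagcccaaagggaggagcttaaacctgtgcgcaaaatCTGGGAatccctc
The windows of Fga and Fgb each held all 3 motifs once, and that of Fgg held CTGGGA alone. CTGGGA stood at -121 to -116 of Fga, at -91 to -86 of Fgb and at -13 to -8 of Fgg, counted from the start, and no matches overlapped in these 3 windows. Over the first listed start of 27025 genes, the same window held CTGGGA in 26.8% of genes, TTCNNNGAA in 7.18% and TTGCNNAA in 9.55%. By these letters the window of Fgb resembled that of Fga more than that of Fgg. The part of these motifs in the levels of the chains was not tested.

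By position (GENCODE M21, GRCm38), Havcr1 (ENSMUSG00000040405) is at chr11:46735080-46779578, Lcn2 (ENSMUSG00000026822) at chr2:32384633-32388252, Spp1 (ENSMUSG00000029304) at chr5:104435118-104441050 and Krt20 (ENSMUSG00000035775) at chr11:99428403-99438150. Cdkn1a (ENSMUSG00000023067) is at chr17:29090976-29100727, Clu (ENSMUSG00000022037) at chr14:65968483-65981547 and Vcam1 (ENSMUSG00000027962) at chr3:116109949-116129688. Spp1, Cdkn1a and Vcam1 each overlap another gene model (Gm42793, AC167363.2 and Gm43109), whose reads may be shared with them.

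Havcr1 and Lcn2 are the markers most used to detect acute tubule injury, and Havcr1 was far lower than Lcn2 in every group by mean RPKM. In wild type on water both lay below the median gene of these libraries. Lcn2 was at 4.23, 4.07, 2.96 and 4.47 RPKM in wild type on water and at 11.9, 8.84, 10.03 and 7.75 RPKM in the knockout on water. On bicarbonate it was at 6.38, 4.76, 18.1 and 4.07 RPKM in wild type and at 4.80, 8.18, 9.66 and 11.4 RPKM in the knockout. The genotypes were thus separate on water and overlapped on bicarbonate. On water Lcn2 rose in the knockout by a log2 difference of 1.27 ± 0.37 (SE, limma adjusted p = 0.0251). The call held in 15 of 18 alternatives and was lost without wild-type water replicate 3 (1.14, limma adjusted p = 0.0680), knockout water replicate 1 (1.16, 0.0667) or knockout water replicate 3 (1.24, 0.0553). On bicarbonate the log2 difference was 0.23 (limma adjusted p = 0.719), and 0.69 without wild-type bicarbonate replicate 3 (limma adjusted p = 0.0794). The change of this difference between the drinks is the interaction, -1.03, and -0.58 without that library. The interaction passed with neither.

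Havcr1 stayed near or below 1 RPKM on average in every group. Its values were 0.360, 0.132, 0.0603 and 0.326 RPKM in wild type on water and 0.435, 1.69, 1.87 and 0.133 RPKM in wild type on bicarbonate. The knockout mice were at 1.25, 0.286, 0.662 and 0.576 RPKM on water and 0.113, 0.836, 0.288 and 0.693 RPKM on bicarbonate. Only the 2 wild-type bicarbonate libraries at 1.69 and 1.87 and the knockout water library at 1.25 exceeded 1 RPKM, and all groups overlapped. The log2 difference between genotypes was 1.30 ± 0.67 on water (SE, limma adjusted p = 0.190) and -0.71 on bicarbonate (limma adjusted p = 0.511). Without wild-type bicarbonate replicate 3 the difference on bicarbonate was -0.29 (limma adjusted p = 0.826).

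Clu, which encodes clusterin and rises in many forms of tubule damage, was the injury marker with the firmest difference, and it was lower in the knockout. It was at 230, 237, 197 and 180 RPKM in wild type on water and at 205, 212, 187 and 207 RPKM in wild type on bicarbonate. The knockout had 131, 117, 159 and 132 RPKM on water and 159, 151, 165 and 144 RPKM on bicarbonate. No knockout library reached the lowest wild-type value. The log2 difference was -0.65 ± 0.10 on water (SE, limma adjusted p = 0.000310) and -0.39 ± 0.10 on bicarbonate (limma adjusted p = 0.0127), and both calls held in 18 of 18 alternatives. Lcn2 and Clu therefore differed in opposite directions on water.

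Spp1 was by far the most abundant member, above 99.8% of genes in wild type on water. Its group means were 1654 ± 170 and 1870 ± 495 RPKM in wild type and 1518 ± 268 and 1419 ± 32.7 RPKM in the knockout (SD, n = 4 each, water then bicarbonate). The genotypes overlapped on each drink, and the 4 knockout bicarbonate libraries lay closest together, at 1376 to 1447 RPKM. The log2 difference was -0.14 on water (limma adjusted p = 0.584) and -0.36 ± 0.16 on bicarbonate (SE, limma adjusted p = 0.122). Without wild-type bicarbonate replicate 3 the difference of Spp1 on bicarbonate was -0.20 (limma adjusted p = 0.318). Krt20 means were between 0.450 and 0.940 RPKM, with single libraries between 0.0477 and 2.06 RPKM, and the log2 differences were 0.36 and -0.70 (limma adjusted p = 0.744 and 0.507). Without wild-type bicarbonate replicate 3 the difference of Krt20 on bicarbonate was -0.27 (limma adjusted p = 0.830). In Krt20 the spread within each group covered the differences between groups.

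Cdkn1a was at 6.62, 4.70, 5.72 and 6.61 RPKM in wild type on water and at 13.9, 10.8, 11.1 and 6.51 RPKM in wild type on bicarbonate. The knockout mice were at 8.06, 4.60, 6.25 and 4.18 RPKM on water, and on bicarbonate at 9.32, 5.69 and 4.51 RPKM with replicate 4 listed at 0. The wild-type bicarbonate group held the 3 highest values of all. The listed 0 sets the error of this gene: the log2 difference on bicarbonate was -2.20 ± 1.01 with it (SE, limma adjusted p = 0.153) and -0.71 ± 0.29 without that library (limma adjusted p = 0.127). On water the log2 difference was -0.07 (limma adjusted p = 0.973). Vcam1 had group means between 3.30 and 4.12 RPKM, and its genotype differences of 0.14 and 0.24 did not pass (limma adjusted p = 0.477 and 0.209).

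**Figure D3:**
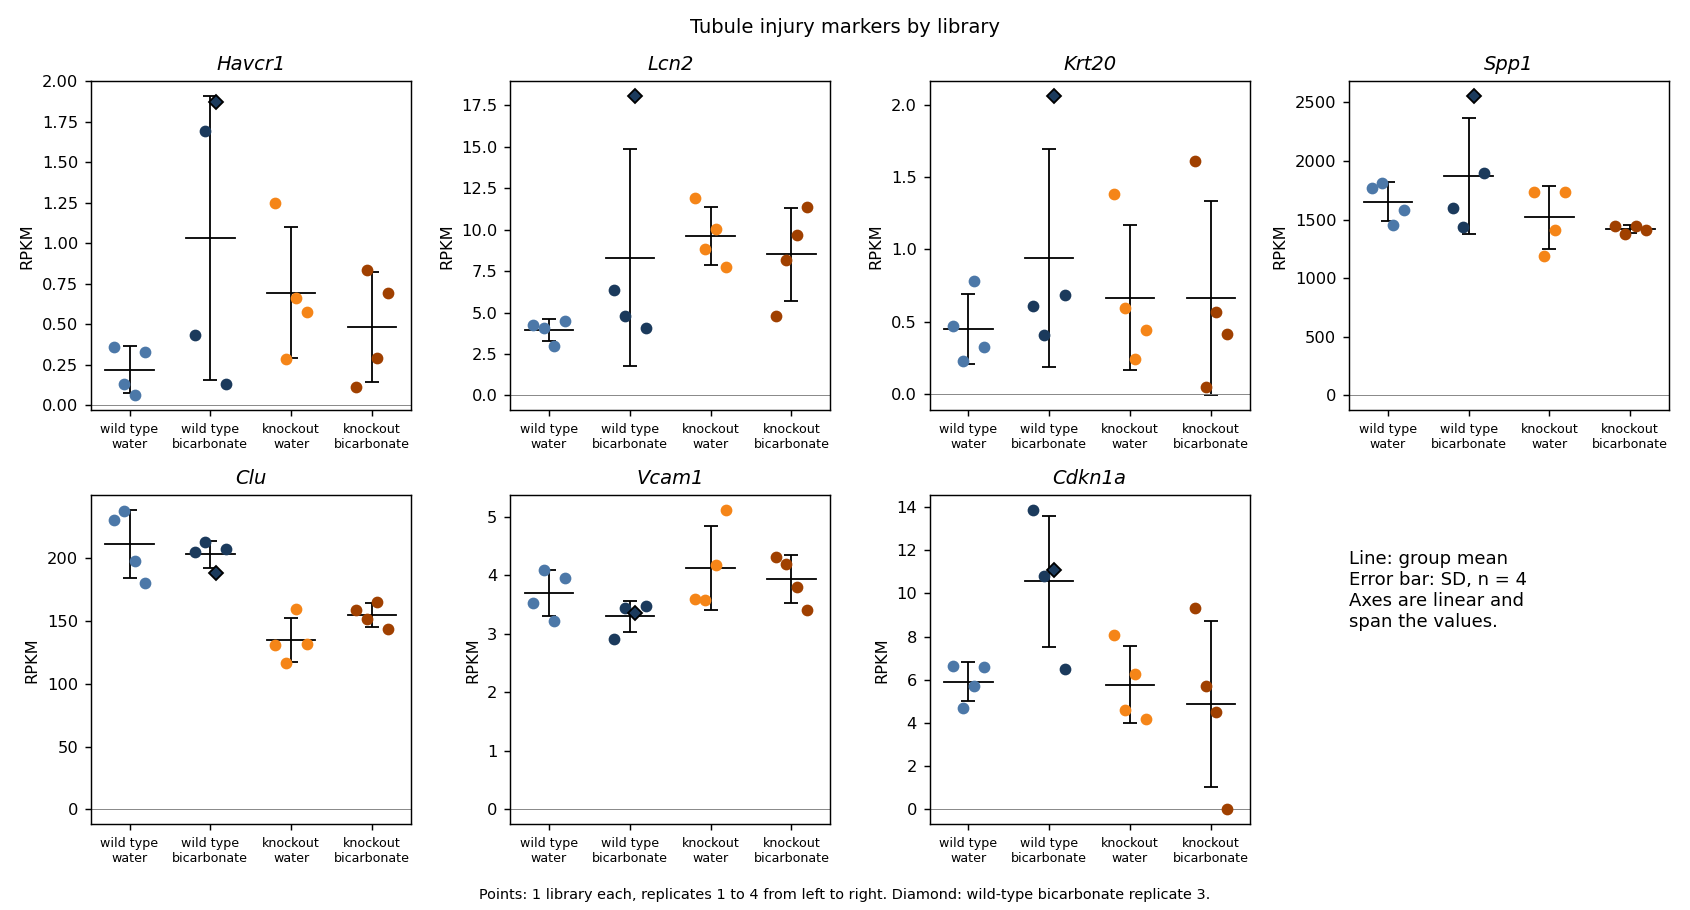
RPKM of the 7 injury markers in each of the 16 libraries by genotype and drink, on linear axes that include 0, with 1 point per mouse, lines and bars for the mean ± SD of 4 mice and a diamond for wild-type bicarbonate replicate 3. Clu lies at 117 to 165 RPKM in the knockout and 180 to 237 RPKM in wild type, and Lcn2 on water lies higher in the knockout, at 7.75 to 11.9 RPKM against 2.96 to 4.47 RPKM.

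Read over both drinks at once, 1 member was higher and 3 were lower in the knockout, against 15.1% and 18.5% of all genes and 33.7% in both directions. These were Lcn2 at 0.75 ± 0.26 (SE, limma adjusted p = 0.0406), Fgg at -2.78 ± 0.31 (limma adjusted p = 7.985e-06), Fgb at -2.23 ± 0.32 (limma adjusted p = 8.865e-05) and Clu at -0.52 ± 0.07 (limma adjusted p = 4.645e-05). The call for Lcn2 held in 12 of 25 alternatives. Without wild-type bicarbonate replicate 3, Lcn2 was at 0.98 (limma adjusted p = 0.000659). Fga, at -0.63 ± 0.25 (limma adjusted p = 0.0700), passed without wild-type water replicate 2 (-0.74, 0.0398) or wild-type bicarbonate replicate 4 (-0.78, 0.0174). Without wild-type bicarbonate replicate 3, Fga was at -0.47 and did not pass (limma adjusted p = 0.121). Spp1 passed without wild-type bicarbonate replicate 2 (-0.31, limma adjusted p = 0.0372), and Vcam1 passed with the trend on length and GC content removed (0.33, limma adjusted p = 0.0110). The groups did not overlap for 4 members on water, 3 on bicarbonate and 3 over both drinks, where 23.8%, 22.8% and 9.15% of all genes tested did not overlap. The median log2 difference of the members was -0.10 on water and -0.71 on bicarbonate, beside -0.047 and -0.016 over all genes tested. The median on bicarbonate includes wild-type bicarbonate replicate 3 and the listed 0 of Cdkn1a. Without that replicate the differences of Fga, Fgb, Fgg, Havcr1, Krt20, Spp1 and Cdkn1a on bicarbonate were smaller in size, and those of Lcn2, Clu and Vcam1 were larger.

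**Figure D4:**
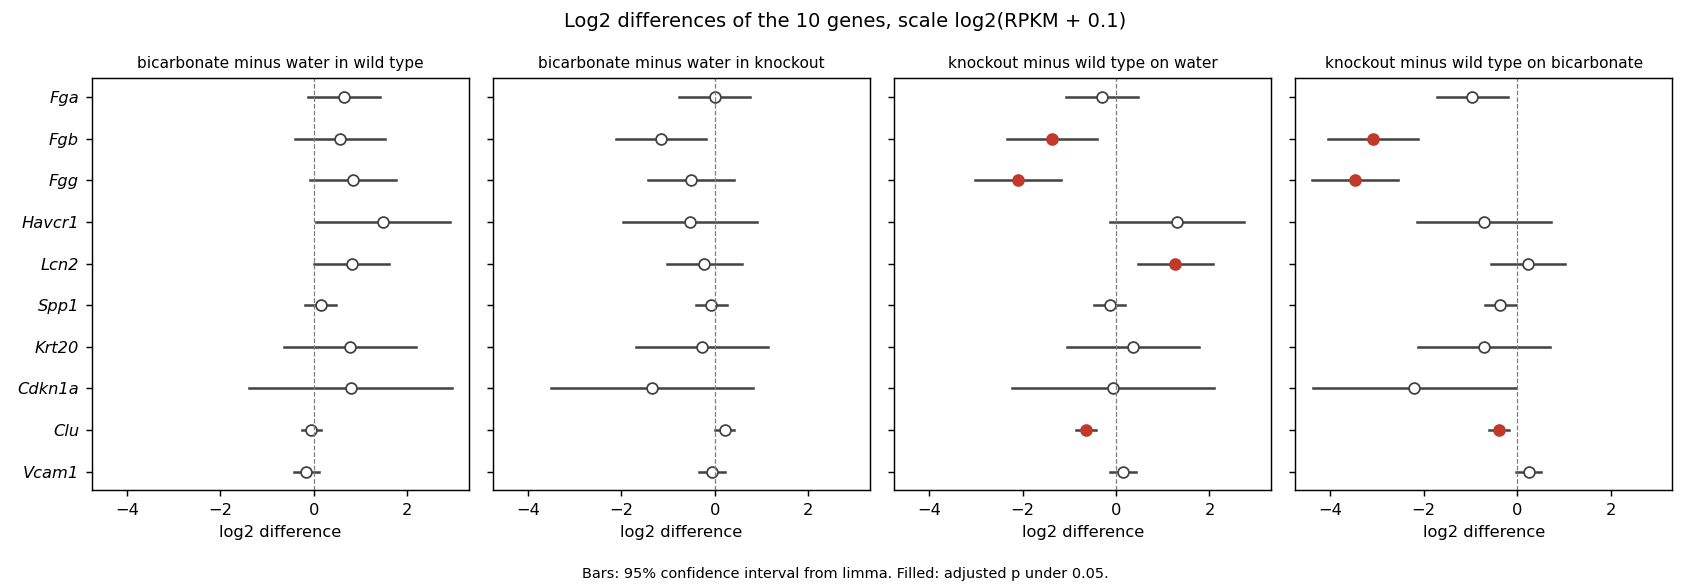
Log2 differences of RPKM + 0.1 for the 10 members in 4 comparisons, with 95% intervals, where filled points have a limma adjusted p under 0.05. Filled points are found for Fgg, Fgb and Clu below 0 in both genotype comparisons and for Lcn2 above 0 on water, and none are filled in the bicarbonate comparisons.

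The alkali load itself moved no member past the threshold. In wild type 0 of 10 members were called, where 0.139% of all genes were, and 2 had an unadjusted p under 0.05, where 12% of all genes did. These were Havcr1 at 1.48 ± 0.67 (SE, limma adjusted p = 0.404) and Lcn2 at 0.81 ± 0.37 (limma adjusted p = 0.412). In the knockout 0 members were called, against 0.0232% of all genes, and only Fgb had an unadjusted p under 0.05, against 7.99% of all genes. Its log2 difference was -1.16 ± 0.45 (SE, limma adjusted p = 0.544), and the knockout groups did not overlap for it. No member in wild type and 1 in the knockout had groups without overlap, where 5.86% and 5.66% of all genes did. Averaged over genotypes, 0 members were called and 0 had an unadjusted p under 0.05, against 0.44% and 11.3% of all genes. Cdkn1a there rests on its listed 0 in knockout bicarbonate replicate 4. It was at -0.28 with that library and at 0.47 without it (limma unadjusted p = 0.0315, adjusted p = 0.434). The 0 also enters the error of Cdkn1a in wild type, 0.79 ± 1.01 (SE), since the groups share 1 fit.

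Whether the answer to bicarbonate differed between genotypes is the interaction, the knockout response minus the wild-type response. None of the 10 members passed it, where 0.0155% of all genes did. Fgb at -1.72 ± 0.64 (SE, limma adjusted p = 0.551) and Fgg at -1.36 ± 0.61 (limma adjusted p = 0.597) had an unadjusted p under 0.05, as 8.19% of all genes did. Without wild-type bicarbonate replicate 3, Fgb was at -1.16 (limma unadjusted p = 0.0209) and Fgg at -0.90 (limma unadjusted p = 0.07855). Cdkn1a at -2.13, Havcr1 at -2.01, Krt20 at -1.07 and Lcn2 at -1.03 did not pass, and Cdkn1a was at -0.64 without knockout bicarbonate replicate 4, its listed 0. With wild-type bicarbonate replicate 3 left out instead, Cdkn1a was at -2.09, Havcr1 at -1.59, Krt20 at -0.64 and Lcn2 at -0.58. The members' median was -1.05, beside 0.020 over all genes. In wild type the median response to bicarbonate was 0.72 over the members and -0.0062 over all genes, and in the knockout it was -0.25 and 0.013. The wild-type and interaction medians include wild-type bicarbonate replicate 3, and the knockout and interaction medians include the listed 0 of Cdkn1a.

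Several of these wild-type differences were much smaller without 1 mouse. Wild-type bicarbonate replicate 3 had the highest value of its group for 7 of the 10 members, while it was highest for 30.7% of all genes tested. Its level was 4.75 times the mean of the other 3 libraries for Fgb, 3.63 times for Krt20, 3.57 times for Fgg, 3.56 times for Lcn2, 2.48 times for Havcr1, 2.27 times for Fga and 1.56 times for Spp1. All 3 fibrinogen chains and both acute injury markers were thus highest in the same kidney. Without it, the log2 difference of bicarbonate minus water in wild type was 0.34 for Fga, 0.01 for Fgb, 0.38 for Fgg, 1.06 for Havcr1, 0.35 for Lcn2, 0.35 for Krt20 and -0.01 for Spp1. The other 3 members moved less with it: Cdkn1a was at 0.79 with this library and 0.75 without it, Clu at -0.05 and -0.01, and Vcam1 at -0.16 and -0.17. Their levels there were 1.07, 0.90 and 1.02 times the mean of the other libraries.

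Other genes of that library also stood apart from its group. Of 6 intercalated cell markers 5 were highest there, and they summed to 193 RPKM, with the rest of the group between 132 and 141 RPKM. Of 6 thick limb markers 5 were lowest, with a sum of 1465 RPKM against 1716 to 1945 RPKM, and 8 of 10 macrophage genes were lowest, with a sum of 47.8 RPKM that was the lowest of the group. Of 19 tested acute phase and IL-6 family genes 10 were highest, against 30.7% of all genes. Of 14 proximal tubule markers, Kap among them, 2 were highest and 6 lowest there, against 30.7% and 30.2% of all genes. The 13 other than Kap summed to 5735 RPKM there and elsewhere in the group to between 5705 and 6362 RPKM. Ren1, the renin gene, was at 183 RPKM, the highest of the group, while the 7 other stroma markers summed to 106 RPKM against 95.8 to 115 RPKM. The summed hepatocyte markers without Apob were at 109 RPKM against 47.7 to 61.4 RPKM, but albumin, the defining liver transcript, was at 2.79 RPKM against 6.27 to 7.15 RPKM. The part of the tissue makeup of this slice in the high fibrinogen and marker levels was not tested.

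**Figure D5:**
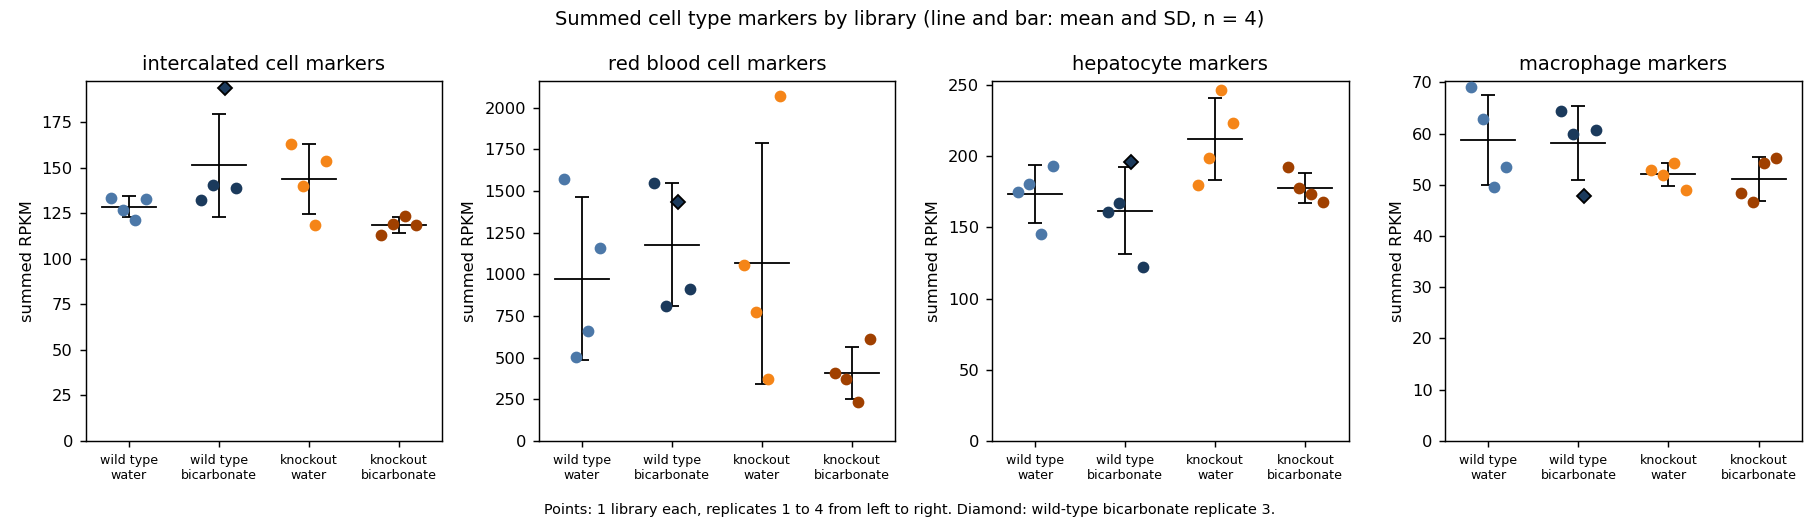
Summed RPKM of 4 cell type marker lists in each of the 16 libraries by genotype and drink, on linear axes from 0, with 1 point per mouse, bars for the mean ± SD of 4 mice and a diamond for wild-type bicarbonate replicate 3. The diamond lies at 193 for intercalated cells, above the other 3 libraries of its group, and the red blood cell sums of the knockout on bicarbonate, at 234 to 612, all lie below those of wild type on bicarbonate, at 811 to 1550.

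After removal of the group means, no pair of members passed the correction, and Fga and Fgg had the highest Pearson r of the 45 pairs. Over 16 libraries the deviations of Fga and Fgg had a Pearson r of 0.83 (permutation p = 0.00600, adjusted p = 0.135 over 45 pairs of members) and a Spearman rho of 0.79 (permutation p = 0.00762, adjusted p = 0.171). Without the 2 libraries farthest from the median of Fga, wild-type bicarbonate replicates 3 and 4, r was 0.71. Without the same 2 libraries the r of the other chain pairs was much lower. Fga and Fgb went from an r of 0.69 (permutation p = 0.0196, adjusted p = 0.210; rho 0.57, permutation p = 0.0247, adjusted p = 0.371) to 0.34. Fgb and Fgg went from 0.73 (permutation p = 0.0146, adjusted p = 0.210; rho 0.48, permutation p = 0.0918, adjusted p = 0.590) to 0.37. Fgg and Clu had an r of -0.65 (permutation p = 0.00456, adjusted p = 0.135) and, without the 2 farthest libraries, -0.55. Of the 45 pairs, 0 passed in r and 0 in rho. The genes most like a member in this measure were Ctsd for Fgb (r = 0.94, and 0.87 without wild-type bicarbonate replicate 3), Rell1 for Havcr1 (0.84 and 0.84), Nr1h2 for Lcn2 (0.89 and 0.79), Igfbp4 for Spp1 (0.92 and 0.88) and Rpe for Clu (0.91 and 0.91). The next were Rabl2 for Fgb, AI413582 and Cd248 for Havcr1, Clta and Cd248 for Lcn2, Mtpap and Habp2 for Spp1, and Marcksl1 and Glipr2 for Clu. These r values are the highest among all genes tested and describe the 16 libraries only.

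Among the partners of fibrinogen in clotting and clot lysis, the genes that passed on a single drink were lower in the knockout. Of 26 tested genes of fibrin formation and lysis, 0 were higher and 7 lower on water, and 0 were higher and 2 lower on bicarbonate, with medians of -0.25 and -0.16. All genes were called lower at 11.8% and 9.36%, so the count on bicarbonate was near the background. Averaged over the drinks 1 was higher and 9 lower, against 15.1% and 18.5% of all genes. F13b, the carrier subunit of the enzyme that cross-links fibrin, fell from 83.8 ± 4.11 to 57.6 ± 4.20 RPKM on water (SD, n = 4 each; log2 difference -0.54, limma adjusted p = 0.000180). Anxa2, which docks plasminogen at the cell surface, fell by 0.38 on the log2 scale (limma adjusted p = 0.00599). The plasminogen activators Plau, from 289 to 180 RPKM, and Plat, from 57.3 to 36.9 RPKM, also fell on water (limma adjusted p = 0.0187 and 0.0166), calls that held in 16 and 17 of 18 alternatives. On bicarbonate the 2 were Serpine2, a protease inhibitor (-0.39, limma adjusted p = 0.0196), and Fgl2, a fibrinogen-like protein (-0.81, limma adjusted p = 0.0343). These calls held in 15 and 12 of 18 alternatives.

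IL-6 and its relatives drive fibrinogen in liver. Of 19 tested acute phase and IL-6 family genes, 2 were higher and 2 lower on water, and 1 was higher and 3 lower on bicarbonate. That is 4 of 19 on each drink, near the 21.9% and 18.4% of all genes, so the count is not a result about the list. Il11ra1, the receptor chain for IL-11, fell from 49.2 ± 5.58 to 29.0 ± 3.21 RPKM on water (SD, n = 4 each; log2 difference -0.76, limma adjusted p = 0.0002) and by 0.40 on the log2 scale on bicarbonate (limma adjusted p = 0.0206), the latter in 14 of 18 alternatives. Il6ra, the IL-6 receptor chain, rose by 0.74 on water (limma adjusted p = 0.0447), and Cebpb, a transcription factor of the acute phase, had a log2 difference of -0.72 on bicarbonate (limma adjusted p = 0.0367). Each of these calls held in 12 of 18 alternatives.

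Among 34 other tested injury and repair genes, 2 passed upward and 2 downward on water in the knockout, and 4 passed upward and 3 downward on bicarbonate, with medians of 0.14 and -0.13. These 4 and 7 of 34 were below or near the shares of all genes, 21.9% and 18.4%. S100a6, a calcium-binding protein found in proliferating and damaged epithelium, rose from 1.89 ± 0.945 to 12.6 ± 1.98 RPKM on water (SD, n = 4 each; log2 difference 2.81, limma adjusted p = 0.000475) and by 2.65 on bicarbonate (limma adjusted p = 0.000969). Krt8, a simple epithelial keratin, was lower on both drinks, with log2 differences of -0.28 and -0.53 (limma adjusted p = 0.04995 and 0.00149), calls that held in 7 and 18 of 18 alternatives. Of 17 genes of the NF-kB pathway, which drives Lcn2 and Vcam1 in inflammation, 1 was higher and 0 lower on water and 0 passed on bicarbonate, below the shares of all genes. The gene was Ccl5, a chemokine for T cells, at 1.65 RPKM in wild type and 5.67 RPKM in the knockout (limma adjusted p = 0.00469). Of 16 genes of healthy tubules, 3 were higher and 3 lower on water, and 4 were higher and 2 lower on bicarbonate, where 10.1% and 11.8%, then 9.03% and 9.36%, of all genes were. The medians of these 16 genes were -0.04 on water and 0.098 on bicarbonate. Umod, the main urinary protein made by the thick limb, was among those lower on water. It fell from 861 to 594 RPKM (limma adjusted p = 0.00182), and no other of 6 thick limb markers was called on water.

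Cdkn1a did not pass between the genotypes, while some of the genes around it in cell cycle control did. Of 22 tested genes of a p53 list, which holds Trp53 itself and Cdkn1b beside targets, 2 were higher and 1 lower in the knockout on water. On bicarbonate 3 were higher and 1 lower. These 3 and 4 of 22 were below or near the shares of all genes. The medians were -0.015 and -0.22, beside -0.047 and -0.016 over all genes, and 3 of the 22 values on bicarbonate were above 0. Cdkn1b, which encodes the related inhibitor p27, rose by 0.67 on water and 0.60 on bicarbonate (limma adjusted p = 0.000117 and 0.000404). Trp53, which encodes p53 and activates Cdkn1a, rose by 0.40 on water (limma adjusted p = 0.00595). On bicarbonate Trp53 (0.31) and Sesn2, a p53 target (0.46), were called higher beside Cdkn1b. Both calls were lost with only the compared groups fitted (limma adjusted p = 0.0811 and 0.0636). Mdm2, a p53 target, was the 1 gene of the list called lower on bicarbonate, at -0.32 (limma adjusted p = 0.0103). Cdkn1b and Trp53 were the 2 genes of the list called higher on water. Among 17 receptors and partners of the members, 1 was higher and 2 lower on water and 0 were higher and 3 lower on bicarbonate, 3 of 17 each, near the shares of all genes. The gene called higher was Slc22a17, a receptor for the Lcn2 protein, which was listed at 0 in 3 of the 4 wild-type libraries on water and at 1.96 RPKM in the other, and between 1.502 and 2.12 RPKM in the knockout on water. Its call (limma adjusted p = 0.0481) held in 6 of 18 alternatives, and it passed the filter mainly through the knockout libraries. Cdk4, a kinase of the G1 phase, fell from 58.3 ± 2.56 to 35.8 ± 2.25 RPKM on water (SD, n = 4 each; limma adjusted p = 7.235e-06). In the bicarbonate comparisons and the interaction, 0 genes of these pathway lists were called.

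Cells that could carry fibrinogen or marker RNA into a kidney slice were checked by their own genes. Of 15 hepatocyte markers 11 were in the table, and in the knockout 0 were lower on either drink and Apoc3 was higher on water, a call that held in 14 of 18 alternatives. Over all genes tested, 10.1% were called higher on water, and 11.8% and 9.36% lower on water and bicarbonate. Their summed RPKM was mostly Apob, which mouse kidney also expresses. Without Apob it was 80.5 ± 20.15 and 69.8 ± 26.8 RPKM in wild type against 102 ± 36.7 and 82.4 ± 15.4 RPKM in the knockout (SD, n = 4 each, water then bicarbonate). Albumin was at 12.9 ± 4.34 and 5.71 ± 1.98 RPKM in wild type and 11.5 ± 3.90 and 9.12 ± 2.12 RPKM in the knockout. The part of liver RNA in the fibrinogen differences was not tested. Of 11 neutrophil genes, which would bring Lcn2, only Csf3r was in the table, at 0.124 to 0.429 RPKM. Of 10 macrophage genes, 0 were called between genotypes on either drink, with sums of 58.8 ± 8.88 and 58.2 ± 7.20 RPKM in wild type and 52.0 ± 2.25 and 51.2 ± 4.24 RPKM in the knockout. Averaged over the drinks Cd68 was higher (0.48, limma adjusted p = 0.0148) and Lyz2 and Mrc1 were lower (-0.52 and -0.32, limma adjusted p = 0.0104 and 0.0486), Mrc1 being named after its value was seen. That is 1 higher and 2 lower of 10, near the 15.1% and 18.5% of all genes. Of the platelet, lymphocyte and urothelium lists, 2 of 6, 3 of 8 and 7 of 7 genes were in the table, and 0 were called between genotypes on either drink. For these lists and the macrophage genes, the shares of all genes called were 21.9% on water and 18.4% on bicarbonate. Summed red blood cell markers were lower in the knockout on bicarbonate and overlapped between the genotypes on water. The sum of 5 such genes was 974 ± 487 and 1176 ± 369 RPKM in wild type and 1068 ± 723 and 405 ± 157 RPKM in the knockout (SD, n = 4 each, water then bicarbonate). None was called on water. On bicarbonate Hba-a2, a haemoglobin alpha gene that may share reads with its near-identical copy, fell by 1.89 on the log2 scale (limma adjusted p = 0.0132, in 18 of 18 alternatives), and Alas2, the haem synthesis enzyme of red cells, fell by 1.02 (limma adjusted p = 0.0429, in 10 of 18). Of all genes tested 9.36% were called lower on bicarbonate. In the interaction 0 of the 5 red blood cell genes were called and 4 had an unadjusted p under 0.05, with a median of -1.69. Fgg and Fgb were also lower in the knockout by more on bicarbonate than on water, a change that did not pass the interaction test, and the part of blood in these values was not tested.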

How the data were processed

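RNA of 16 kidney slices was sequenced as 1 library per mouse, with standard Illumina library protocols per the labels. The authors deposited RPKM per gene in 1 table, with Salmon 1.5.2 and edgeR 3.34.0 named in the submitters' processing notes without their roles. Those notes name the builds GRCm39 and mm10, and no source used here says which annotation the values rest on. All 13430 identifiers matched a symbol in GENCODE M21 on GRCm38. The values gave back no whole reads, so depth is unknown and no counting interval is given. An exact 0 can be a failed estimate and is written as listed at 0.

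The 4 groups of 4 were taken from the sample labels, and nothing says that replicates came from separate litters or days, so p-values measure the spread between these mice. Differences were tested with limma 3.58.1 in R 4.3.3, with trended and robust variances, on log2(RPKM + 0.1) of the 12943 genes that reached 0.5 RPKM in 4 libraries or more. It was 1 fit of 4 group means with 12 residual degrees of freedom, two-sided, with Benjamini-Hochberg adjustment over all genes tested and a threshold of 0.05. The comparisons share libraries and are not independent. Procedures were tested on simulated data. The members and gene lists were chosen with earlier results of these data known. All 10 members are named, with up to 4 genes past the threshold per pathway list and comparison, up to 2 per marker list, the 3 most similar genes for 5 members, and Fgb neighbours past the threshold. Of these, the text gives values for a part, and some are not reported here. Ratios, correlations, sums and promoters were computed in Python 3.11.15 (numpy 2.4.6, pandas 2.3.3, scipy 1.17.1). Correlations used 100000 permutations within groups. Alternatives were other pseudocounts, filters, quantile normalization, a length and GC trend, a replicate block, the compared groups alone, plain variances and each library left out.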

Additional observations from a re-analysis of the deposited data

Results flagged for a closer look

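A mouse was listed here when its value stood apart from the other 3 of its group by a gap that made up more of the range of the group than Dixon's 95% critical value allows. Of 40 sets of 4 values, 10 members in 4 groups, 3 met it, where chance gives about 1 in 20. Lcn2 was at 18.07 RPKM and Krt20 at 2.059 RPKM in wild-type bicarbonate replicate 3, the library that also had the highest fibrinogen chains and the lowest Kap of its group. Fga was at 15.67 RPKM in knockout bicarbonate replicate 1, above 3 libraries at 11.8 to 12.1 RPKM.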

How the results depend on the processing

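Of 115 calls on single genes, 73 were kept in every alternative, among them Fgg and Clu on each drink and Fgb on bicarbonate. The calls for Fgb and Lcn2 on water were not. Values of Fgb, Havcr1 and Krt20 rest on low RPKM of unknown depth and move with the pseudocount, and the cause of the other shifts was not tested. The count of members called was 2 to 4 on water, 3 to 4 on bicarbonate and 3 to 4 over both drinks with each library left out, and 0 in every comparison of drinks and the interaction.

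Over all genes, bicarbonate in wild type called 18 genes, against 34 with quantile normalization, 5 with the length and GC trend removed, 5 with only the compared groups, 2 with the replicate block and 2 to 82 with each library left out. Bicarbonate in the knockout gave 2 to 4 with each left out. The interaction called 2, against 1 with a pseudocount of 1, 0 with a pseudocount of 0.01, 0 with a minimum RPKM of 1, 4 with the length and GC trend removed, 4 with plain variances and 1 to 5 with each library left out. Bicarbonate averaged over genotypes called 57, against 36 with plain variances, 29 with the replicate block and 17 to 95 with each left out. Genotype called 2245 to 2566 on water, 1748 to 2243 on bicarbonate and 3915 to 4355 over both with each left out. Replicate numbers did not pair the mice, with same-number correlations of -0.049 to 0.105. Under the replicate block Fgb on water and Lcn2 over both drinks were lost (limma adjusted p = 0.0546 and 0.0558).

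Signs turned in 39 gene values, 35 of them with 1 library left out, and none was called under either setting. With a pseudocount of 1, bicarbonate averaged over genotypes gave 0.067 for Fgb and 0.064 for Cdkn1a. With the length and GC trend removed, Vcam1 gave -0.0025 in the interaction and Plrg1 0.0057 for genotype over both drinks. The log2 ratio of Fgb to Fga was -0.28 with a pseudocount of 1, and that of Fgb to Fgg was 0.56 with 0.1, 1.39 with 1 and -0.26 to 0.085 with each library left out.

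With each library left out in turn, the other values that turned had these ranges. Bicarbonate in wild type then ranged from -0.12 to 0.0098 for Clu and -0.014 to 0.26 for Spp1. Bicarbonate in the knockout then ranged from -0.11 to 0.10 for Fga, -0.83 to 0.34 for Krt20, -0.12 to 0.051 for Vcam1, -0.39 to 0.023 for Lcn2 and -2.03 to 0.15 for Cdkn1a. Bicarbonate averaged over genotypes then ranged from -0.065 to 0.31 for Fgg, -0.047 to 0.092 for Spp1, -0.025 to 0.56 for Krt20 and -0.62 to 0.47 for Cdkn1a. Genotype on water then ranged from -0.023 to 0.094 for Plrg1, -0.0801 to 0.21 for Tlr2, -0.027 to 0.68 for Krt20 and -0.24 to 0.067 for Cdkn1a. Genotype on bicarbonate then ranged from -0.27 to 0.14 for Tmem131l, -0.015 to 0.69 for Lcn2 and -0.051 to 0.24 for Sfrp2. Genotype over both drinks then ranged from -0.034 to 0.20 for Map9, -0.45 to 0.14 for Krt20, -0.0053 to 0.51 for Havcr1 and -0.082 to 0.00031 for Plrg1.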
